A study of Mus musculus with 8 samples.

Results

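The 9 tricarboxylic acid cycle genes Cs, Idh3a, Idh3b, Idh3g, Ogdh, Suclg1, Suclg2, Fh1 and Mdh2 were followed in gonadal white fat of Rap1-/- and WT mice. They were taken as every probe of the array whose RefSeq transcript belongs to one of these genes, which gave 11 probes for the 9 genes, of 55681 probes and 25064 genes or other features tested in all. RAP1, encoded by Terf2ip, is a telomere-binding protein that also occupies sites away from telomeres, and the study asked how its loss affects metabolism. Rap1-/- mice carry a Rap1 allele deleted in the whole body from a floxed allele with an EIIa-cre transgene, which was then bred out, so the deletion was constitutive and not limited to fat cells. All 8 samples, 4 Rap1-/- and 4 WT, came from mice 10 weeks old on a C57BL6/129SV background of 90% to 10%. The mice were female and on standard chow per the study's own description. Each sample was hybridised to 1 one-colour array. The samples are whole fat pads, in which fewer cells of a type and less RNA per cell cannot be told apart.

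The cycle takes acetyl groups from pyruvate, fatty acids and amino acids, oxidises them in the mitochondrial matrix and hands their electrons to the respiratory chain as NADH and FADH2. In white adipocytes it also makes citrate, which is exported to the cytosol and cleaved there to give acetyl-CoA for fatty acid synthesis. The members described here are citrate synthase (Cs), the 3 kinds of subunit of the NAD-dependent isocitrate dehydrogenase (Idh3a, Idh3b, Idh3g), the first enzyme of the 2-oxoglutarate dehydrogenase complex (Ogdh), the shared and the GTP-specific subunits of succinyl-CoA ligase (Suclg1, Suclg2), fumarase (Fh1) and the mitochondrial malate dehydrogenase (Mdh2).

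None of the 9 cycle genes differed between Rap1-/- and WT fat beyond the spread between arrays (limma, Benjamini-Hochberg adjusted p between 0.874 and 0.997). Over all features 1 of 25064 passed the same threshold (0.00399%). At an unadjusted p under 0.05, 0 of the 9 genes passed, against 1248 of all features (4.98%), and the 4 Rap1-/- and 4 WT values overlapped for all 9 genes, while they did not overlap for 816 of all features (3.26%). The differences, Rap1-/- minus WT, lay between -0.28 log2 units for Cs and 0.01 for Suclg2. Their median was -0.12, beside -0.04 over all features, and 8 of 9 lay below 0, beside 59.85% of all features. Once arrays were scaled to the spiked-in E1A control transcripts, 8 of 9 lay above 0, with a median of 0.12, beside 0.20 over all features.

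The arrays themselves differed little in quality. Between 59.7% and 65.2% of the probes exceeded background by the scanner's call, with 0 saturated spots, and 2 arrays of one genotype correlated at 0.976 to 0.992, while 2 arrays of different genotype did so at 0.978 to 0.992. Values are log2 signals relative to the 75th percentile of their own array, whose intensity was 447 ± 44.3 (SD) over the Rap1-/- arrays and 383 ± 58.9 over the WT arrays (4 each). The knockout was visible in Terf2ip, where one probe was below the scanner's background call throughout Rap1-/- (0 of 4 arrays passed) and above it throughout WT (4 of 4), and a second probe ran the other way, at 0.97 in Rap1-/- and -1.41 in WT. Each of the 2 slides held WT samples at array positions 1 and 2 and Rap1-/- samples at positions 3 and 4, so position and genotype cannot be told apart. Adipocyte markers were well above background on every array, 12 of 12 genes.

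Promoter sequence was available for 8 of the 9 genes, all but Idh3a, in a RefSeq table for GRCm38.p6 that gives 250 bases before and 50 after each transcription start. The 13 windows of these genes, 6 of them for Ogdh, had 49.3% to 72.3% G and C and 11 to 37 CpG pairs, beside medians of 52.7% and 7 over 32817 promoters. Of the 6 windows that hold one of 4 motifs searched on both strands, all but one that overlaps its neighbour are shown, because the factors named for these motifs are general activators of mitochondrial genes or, for the last, RAP1's own complex. Capitals mark the motif. These were the ETS core of GABP (CCGGAAG, in 8.86% of all promoters), the motif of the estrogen-related receptors (AAGGTCA, 4.72%), the NRF1 core (GCGCATGCG, 1.75%) and the telomere repeat bound by shelterin (TTAGGG, 10.6%). The letters of the first begin 5 bases before the start in Idh3b and 104 bases before it in Idh3g, those of the second 5 bases before 1 of the Ogdh starts, those of the third 15 bases before another Ogdh start, and those of the fourth at base 14 after the start in Fh1.
Idh3b, chr2:130284402-130284701, minus strand: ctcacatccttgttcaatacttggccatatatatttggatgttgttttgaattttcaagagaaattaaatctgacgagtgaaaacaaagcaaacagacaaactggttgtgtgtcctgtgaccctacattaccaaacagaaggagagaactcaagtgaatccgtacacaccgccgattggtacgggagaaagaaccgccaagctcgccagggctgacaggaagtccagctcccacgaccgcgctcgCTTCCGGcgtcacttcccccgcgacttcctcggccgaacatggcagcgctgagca
Idh3g, chrX:73786848-73787147, minus strand: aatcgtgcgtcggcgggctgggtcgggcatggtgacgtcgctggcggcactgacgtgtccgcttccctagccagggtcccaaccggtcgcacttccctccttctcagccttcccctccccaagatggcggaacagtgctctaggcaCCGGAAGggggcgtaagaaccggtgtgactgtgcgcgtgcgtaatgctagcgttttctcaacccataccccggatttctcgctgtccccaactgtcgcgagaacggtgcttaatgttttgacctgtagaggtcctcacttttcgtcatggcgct
Ogdh, chr11:6291920-6292219, plus strand: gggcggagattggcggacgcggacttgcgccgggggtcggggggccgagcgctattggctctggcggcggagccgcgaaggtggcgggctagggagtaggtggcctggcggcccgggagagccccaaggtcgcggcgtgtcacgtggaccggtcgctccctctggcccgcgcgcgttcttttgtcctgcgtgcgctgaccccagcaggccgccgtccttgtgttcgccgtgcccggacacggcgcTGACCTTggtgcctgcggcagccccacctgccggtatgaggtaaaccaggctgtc
Ogdh, chr11:6292308-6292607, plus strand: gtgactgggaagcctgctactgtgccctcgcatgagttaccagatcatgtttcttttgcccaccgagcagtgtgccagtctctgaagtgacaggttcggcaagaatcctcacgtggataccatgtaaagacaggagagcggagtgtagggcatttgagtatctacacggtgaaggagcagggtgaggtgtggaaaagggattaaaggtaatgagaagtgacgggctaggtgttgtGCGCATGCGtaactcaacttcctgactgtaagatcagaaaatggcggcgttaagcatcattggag
Fh1, chr1:175625586-175625885, minus strand: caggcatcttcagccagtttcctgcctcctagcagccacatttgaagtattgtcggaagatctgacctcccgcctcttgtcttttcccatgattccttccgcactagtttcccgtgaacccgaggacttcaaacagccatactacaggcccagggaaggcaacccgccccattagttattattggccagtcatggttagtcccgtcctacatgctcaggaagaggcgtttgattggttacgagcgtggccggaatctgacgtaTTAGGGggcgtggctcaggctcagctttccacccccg
The NRF1 core of Ogdh also lies 36 bases before a neighbouring start, whose window holds the same letters. The windows of Cs, Suclg1, Suclg2 and Mdh2 held none of the 4 motifs. The TTAGGG of Fh1 is a single copy, whereas the study reports that RAP1 away from telomeres prefers this repeat in tandem. A match is a description of the letters and not a site of binding.

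Cs, on chromosome 10 (128337727 to 128362482 in GRCm38.p6), joins acetyl-CoA to oxaloacetate and opens the cycle. Its signal was 6.96, 7.34, 7.17 and 7.30 on Rap1-/- arrays 1 to 4, against 7.75, 7.17, 7.40 and 7.55 on WT arrays 1 to 4. All 4 Rap1-/- values lay below the WT mean, but WT array 2 lay within the Rap1-/- range, so the groups overlapped. The Rap1-/- mean was 7.19 ± 0.17 and the WT mean 7.47 ± 0.25 (SD, n = 4 for both), a difference of -0.28 ± 0.14 (SE), or 0.826-fold (limma, unadjusted p = 0.0894, adjusted p = 0.874). With this scaling the 95% interval, -0.60 to 0.05, ran between a 1.52-fold lower and a 1.04-fold higher level in Rap1-/- fat. Without WT array 2 the difference was -0.38 and without WT array 1 it was -0.18, the other scalings gave -0.22 to -0.04, and none of these passed (adjusted p of 0.534 or above over all alternatives).

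**Figure D1:**
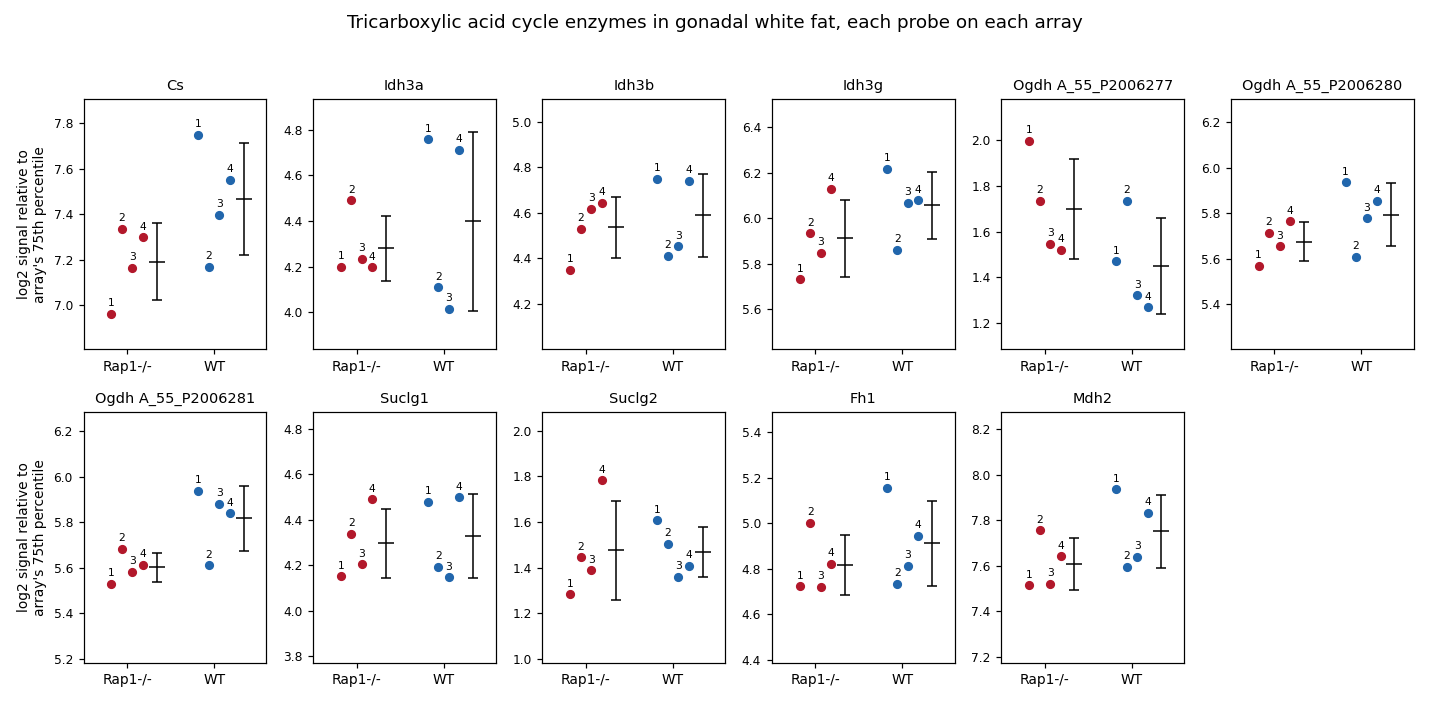
Signal of each of the 11 probes of the 9 cycle genes on each array, in log2 units above the 75th percentile of that array. Points are single arrays numbered within genotype, with Rap1-/- in red on the left and WT in blue on the right, bars are mean ± SD (n = 4 each), and every panel spans the same number of log2 units. In all 11 panels the genotypes overlap, and WT array 1 is often the highest point and Rap1-/- array 1 often the lowest.

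The isocitrate dehydrogenase subunits form 1 enzyme, with Idh3a as the catalytic subunit and Idh3b and Idh3g as partners that regulate it. Idh3a, on chromosome 9 (54586511 to 54604662), read 4.20, 4.49, 4.23 and 4.20 on the Rap1-/- arrays, against 4.76, 4.11, 4.01 and 4.71 on the WT arrays. The WT arrays formed a high and a low pair with all 4 Rap1-/- arrays between them, the SD being 0.14 in Rap1-/- and 0.39 in WT. The difference was -0.12 ± 0.19 (SE, 95% interval -0.55 to 0.32, limma adjusted p = 0.933), the widest error of the 9 genes. Idh3b, on chromosome 2 (130279309 to 130284451), read 4.35, 4.53, 4.62 and 4.64 in Rap1-/- against 4.75, 4.41, 4.45 and 4.74 in WT, with a difference of -0.05 ± 0.12 (95% interval -0.32 to 0.22, adjusted p = 0.958). Here too the highest values were those of WT arrays 1 and 4, and the lowest was that of Rap1-/- array 1. Idh3g, on chromosome X (73778963 to 73786897), read 5.73, 5.93, 5.85 and 6.13 in Rap1-/- against 6.22, 5.86, 6.07 and 6.08 in WT. For this subunit Rap1-/- array 4 lay above 3 of the 4 WT arrays, and the difference was -0.15 ± 0.12 (95% interval -0.41 to 0.12, adjusted p = 0.886).

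Skeletal muscle markers, which differ widely between these fat samples, were set beside Idh3a. The mean deviation of 16 muscle genes from their own 8-array means was -3.54, 3.17, 2.05 and -4.50 log2 units on Rap1-/- arrays 1 to 4, against 1.75, 0.08, -0.79 and 1.78 on WT arrays 1 to 4. Within each genotype Idh3a was highest on the arrays where the muscle genes were highest, which were Rap1-/- array 2 and WT arrays 1 and 4. Cs, Fh1 and Mdh2 were highest on the same arrays, so this was not particular to Idh3a. The remaining members, Ogdh by its brightest probe, were highest on array 4 within Rap1-/-. On Rap1-/- array 3, where muscle genes were also high (2.05), Idh3a read 4.23, against 4.20 on Rap1-/- arrays 1 and 4. Fh1 was at its lowest on that array, and Cs (7.17) and Mdh2 (7.52) were lower there than on Rap1-/- array 4 (7.30 and 7.64), where muscle genes were lowest. The summed muscle level was 26.2 to 1618 in Rap1-/- and 114 to 688 in WT (linear units relative to the 75th percentile), and 15 of 16 muscle genes were lower in Rap1-/- on average with 0 passing the test. Their median of -1.28 rested on single arrays, since it was -0.26 without Rap1-/- array 1 (11 of 16 lower), -0.09 without Rap1-/- array 4 (10 of 16), -2.59 and -2.11 without Rap1-/- arrays 2 and 3, and -0.78 and -0.85 without WT arrays 1 and 4. The part of muscle RNA in the values of Idh3a or of other members was not tested.

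Ogdh, on chromosome 11 (6291597 to 6359094), encodes the subunit that decarboxylates 2-oxoglutarate and was the only member with more than 1 probe. Its brightest probe, A_55_P2006280, read 5.57, 5.71, 5.66 and 5.77 in Rap1-/- against 5.94, 5.61, 5.78 and 5.85 in WT. The difference was -0.12 ± 0.10 (SE, 95% interval -0.34 to 0.10, limma adjusted p = 0.886). A second probe, A_55_P2006281, read 5.53, 5.68, 5.58 and 5.61 in Rap1-/- against 5.94, 5.61, 5.88 and 5.84 in WT, a difference of -0.22 ± 0.10 (unadjusted p = 0.0545, adjusted p = 0.897 over all kept probes). The groups would not overlap on this probe but for WT array 2, which lay level with Rap1-/- array 4. The third and dimmest probe, A_55_P2006277, ran the other way, with 2.00, 1.73, 1.55 and 1.52 in Rap1-/- against 1.47, 1.74, 1.32 and 1.27 in WT, or 0.25 ± 0.15 (1.19-fold, unadjusted p = 0.124, adjusted p = 0.897). All 4 Rap1-/- arrays lay above the WT mean there, and Rap1-/- array 1, the lowest for the other probes, was the highest. The log2 ratio of this probe to the mean of the others was -3.94 ± 0.27 over the Rap1-/- arrays and -4.36 ± 0.33 over the WT arrays (SD, n = 4 for both), a difference of 0.42 that did not pass an exact two-sided permutation test (p = 0.114, where the smallest of 70 assignments is 0.0286). This ratio was chosen after its values were seen, and the positions of the probes in the Ogdh transcripts were not used here.

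Succinyl-CoA ligase makes succinate and a nucleotide triphosphate, and its 2 subunits measured here differed in pattern. Suclg1, on chromosome 6 (73248505 to 73276907), read 4.15, 4.34, 4.20 and 4.49 in Rap1-/- against 4.48, 4.19, 4.15 and 4.50 in WT, a difference of -0.03 ± 0.12 (SE, 95% interval -0.31 to 0.25, limma adjusted p = 0.979). The GTP-specific subunit Suclg2, also on chromosome 6 (95473009 to 95718858), read 1.28, 1.45, 1.39 and 1.78 in Rap1-/- against 1.61, 1.5, 1.36 and 1.41 in WT. Its highest value was that of Rap1-/- array 4 and its lowest that of Rap1-/- array 1, so the knockout arrays spanned the whole range. The difference was 0.01 ± 0.12 (95% interval -0.28 to 0.29, adjusted p = 0.997), and it was -0.19 within slide 1 and 0.20 within slide 2, each with 2 arrays per genotype.

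Fh1, on chromosome 1 (175601378 to 175625635), hydrates fumarate to malate. It read 4.72, 5.0, 4.72 and 4.82 in Rap1-/- against 5.16, 4.73, 4.81 and 4.94 in WT, a difference of -0.10 ± 0.12 (SE, 95% interval -0.37 to 0.17, limma adjusted p = 0.912). Mdh2, on chromosome 5 (135778649 to 135790386), oxidises malate to oxaloacetate and closes the cycle. It read 7.51, 7.76, 7.52 and 7.64 in Rap1-/- against 7.94, 7.60, 7.64 and 7.83 in WT, a difference of -0.14 ± 0.11 (95% interval -0.39 to 0.10, adjusted p = 0.881). For both genes WT array 1 was highest, Rap1-/- array 2 lay above the WT mean, and the groups overlapped.

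**Figure D2:**
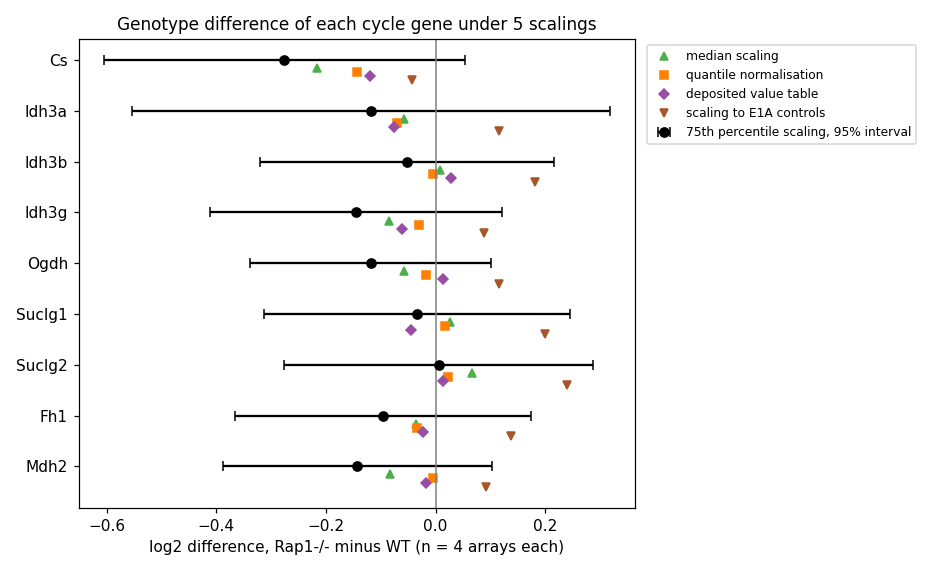
Difference of each cycle gene, Rap1-/- minus WT, on the log2 scale. Black points are the values scaled to the 75th percentile with 95% intervals (n = 4 each), and coloured symbols are the same differences under 4 other scalings. Every interval spans 0, Cs lies farthest from 0, and scaling to the E1A controls puts 8 of the 9 genes above 0.

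The size and sign of the differences depended on the scaling. The members' median was -0.12 with the 75th percentile, -0.06 with the array median, -0.05 after normexp background correction, -0.02 after quantile normalisation and in the deposited value table, and 0.12 with the E1A controls. The median of all features moved as well, by 0.23 from -0.04 to 0.20 with the E1A controls. That shift leaned on WT array 3, where these controls stood 3.57 log2 units above the 75th percentile, against 2.88 to 3.14 on the other arrays. E1A scaling without WT array 3 was not run. Relative to the median of all features the members stood at -0.08 with the 75th percentile, the array median or the E1A controls, which shift every gene of an array alike, at -0.02 after quantile normalisation and in the deposited table, and at 0.01 after normexp. Without WT array 1 they stood at 0.02. With the 75th percentile the 95% intervals of the 9 genes reached from -0.60 to 0.32, or 1.52-fold lower to 1.25-fold higher in Rap1-/- fat, and these limits hold for that scaling alone. Their residual SD between arrays had a median of 0.16 (0.11 to 0.29), beside 0.20 over all features.

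Many of the 9 genes shared their highest and their lowest array. WT array 1 was the highest array for 7 of the 9 genes, and Rap1-/- array 1 was the lowest for 6. The mean deviation of the 9 genes from their own means was -0.20, 0.03, -0.10 and 0.05 on Rap1-/- arrays 1 to 4, against 0.26, -0.12, -0.07 and 0.15 on WT arrays 1 to 4. The distance between WT arrays 1 and 2, which share genotype and slide, was thus larger than that between the genotype means of -0.05 in Rap1-/- and 0.05 in WT. Without WT array 1 the members' median moved to -0.01, with 5 of 9 genes below 0, and without WT array 2 it moved to -0.18, with 1 gene (Cs) at an unadjusted p under 0.05. Leaving out WT array 2 gave 2305 of 25064 features such a p, against 1248 with every array. Over all features the median deviation was -0.02 on Rap1-/- array 1 and 0.04 on WT array 1.

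Across the 8 arrays, the 36 pairs of members correlated with a median Pearson r of 0.75. All values are on one scale per array and share its percentile, so part of any such r is common to every gene of an array. The closest pair was Cs and Ogdh (r = 0.97), and 12 pairs exceeded 0.8. The loosest was Idh3a and Suclg2 (r = 0.16), and no pair lay below 0. Suclg2 stood apart with a median r of 0.40 to the other members, against 0.74 to 0.83 for the other 8 genes. By rank Idh3a was as loose. Its Spearman rho ran from 0.21 (Suclg2) to 0.69 (Idh3b), and that of Suclg2 from 0.21 to 0.69 (Idh3g). After removing genotype means the median r was 0.76. These values are descriptions of 8 arrays, with no test.

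**Figure D3:**
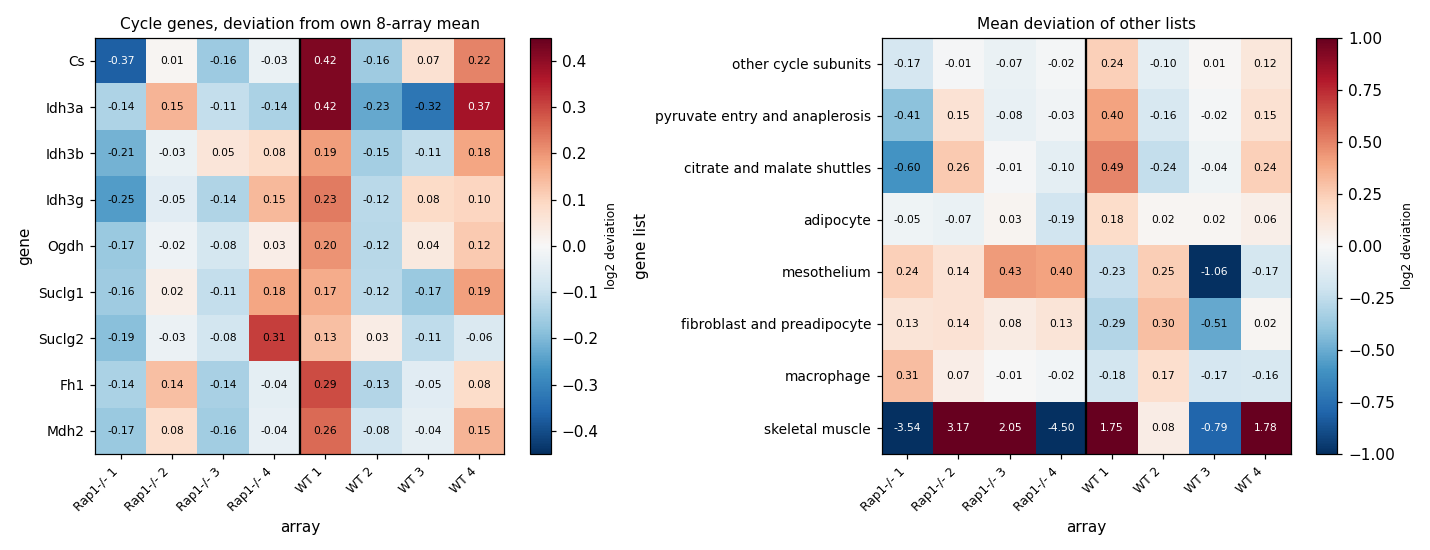
Left, deviation of each cycle gene from its own mean over the 8 arrays; right, mean deviation of the genes of other lists, both in log2 units, with Rap1-/- arrays left of the line and WT arrays right of it. Colours of the right panel end at 1 log2 unit on either side, so the muscle values run past them, while the printed numbers are complete. Rap1-/- array 1 is low and WT array 1 is high for the cycle genes and for the pyruvate and citrate lists, and the muscle list has another order.

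Among 14916 other genes with a symbol, 662 (4.44%) had an r above 0.8 with the mean profile of the members and 193 (1.29%) an r above 0.9. The 5 most alike over the 8 arrays were Pgam1, the glycolytic phosphoglycerate mutase (r = 0.998, Spearman rho = 1.0), Ndufs8 of respiratory complex I (r = 0.984), Uqcrc1 and Cyc1 of complex III (r = 0.984 each) and Sod2, the mitochondrial superoxide dismutase (r = 0.979). Pgam1 read 5.39, 5.64, 5.48 and 5.70 in Rap1-/- against 5.96, 5.47, 5.53 and 5.81 in WT, the same order of arrays as the members' mean. Its difference was -0.14 ± 0.13 (SE, limma adjusted p = 0.897), and the other 4 genes had differences of -0.22 to -0.10, none past the test.

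The other subunits of the cycle had differences of like size. Of 9 such genes 0 were called and 0 had an unadjusted p under 0.05, and 8 lay below 0 with a median of -0.16, while 8 lay above 0 with the E1A scaling. Without WT array 2, 4 of the 9 had an unadjusted p under 0.05, while over all features that count rose from 1248 to 2305 of 25064. Without WT array 1 the median was -0.06. Sdha, the flavoprotein of succinate dehydrogenase, read 5.40, 5.50, 5.46 and 5.64 in Rap1-/- against 5.90, 5.6, 5.72 and 5.64 in WT (-0.22 ± 0.10 SE, limma unadjusted p = 0.0561, adjusted p = 0.874). Only Rap1-/- array 4 reached the WT values. The iron-sulfur subunit Sdhb was at -0.19 ± 0.10 and the membrane anchor Sdhd at -0.16 ± 0.11, with adjusted p of 0.874 and 0.878. Idh2, the NADP-dependent isocitrate dehydrogenase, was named after its values were seen because it was the exception. It was at 0.09 ± 0.11 (adjusted p = 0.91) and its profile over the arrays ran against that of the members (r = -0.39), whereas Dld (r = 0.96) and Sucla2, the ATP-specific partner of Suclg1 (r = 0.94), ran with them.

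Genes that feed the cycle spread more widely. Of 12 genes for pyruvate entry and anaplerosis 8 lay below 0 and 4 above, with a median of -0.31 (-0.08 with the E1A scaling), and 0 were called. The median was -0.16 without WT array 1 and -0.20 without Rap1-/- array 1. Pcx, the pyruvate carboxylase that makes oxaloacetate, read 7.03, 7.73, 7.72 and 7.86 in Rap1-/- against 8.45, 7.77, 8.27 and 7.98 in WT. The groups overlapped only through Rap1-/- array 4 and WT array 2, and the difference was -0.54 ± 0.22 (SE, 0.69-fold, limma unadjusted p = 0.037, adjusted p = 0.874). It was the only gene of this list with an unadjusted p under 0.05. Leaving out WT array 2 gave 4 such genes lower in Rap1-/-, while the count over all features rose from 1248 to 2305. Leaving out WT array 1 or Rap1-/- array 1 gave 0, with 826 and 876 over all features. The list also had 0 such genes with quantile normalisation and in the deposited table, and with E1A scaling 0 lower and 1 higher. Mpc2, a subunit of the mitochondrial pyruvate carrier, was at -0.51 ± 0.24 and Pdha1, the catalytic subunit of pyruvate dehydrogenase, at -0.44 ± 0.24. Got2, the mitochondrial aspartate aminotransferase, was at 0.27 ± 0.14. These 3 genes had adjusted p of 0.874 each.

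Of 11 genes of the citrate and malate shuttles, which carry cycle intermediates to and from the cytosol, 7 lay below 0 and 4 above (median -0.28, or -0.04 with the E1A scaling), 0 were called, and 2 lower and 1 higher had an unadjusted p under 0.05. Without WT array 2 these counts were 4 and 0, while the count over all features rose from 1248 to 2305. Without Rap1-/- array 1 or WT array 4 they were 0 and 0, with 876 and 1535 over all features. They were also 0 and 0 with quantile normalisation, 0 and 1 with E1A scaling, and 1 and 1 in the deposited table. Me1, the cytosolic malic enzyme that makes NADPH for lipid synthesis, read 6.15, 7.69, 7.37 and 7.37 in Rap1-/- against 8.83, 7.41, 7.94 and 8.17 in WT (-0.94 ± 0.39 SE, 0.52-fold, limma unadjusted p = 0.0407, adjusted p = 0.874). Rap1-/- array 1 was the lowest and WT array 1 the highest, as for the cycle genes. Mdh1, the cytosolic counterpart of Mdh2, read 6.12, 6.33, 6.08 and 6.30 in Rap1-/- against 6.77, 6.43, 6.32 and 6.44 in WT (-0.28 ± 0.12, unadjusted p = 0.0442, adjusted p = 0.874). Slc25a13, an aspartate and glutamate carrier, read -2.47, -2.42, -2.88 and -2.84 in Rap1-/- against -2.89, -2.92, -3.35 and -2.93 in WT (0.37 ± 0.15, unadjusted p = 0.0428, adjusted p = 0.874). It was the 1 gene of the 4 related lists whose groups did not overlap, where 3.26% of all features did not. The margin was smaller than the spread within a genotype. Aco1, the cytosolic aconitase, was at -0.28 ± 0.12 (adjusted p = 0.874).

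**Figure D4:**
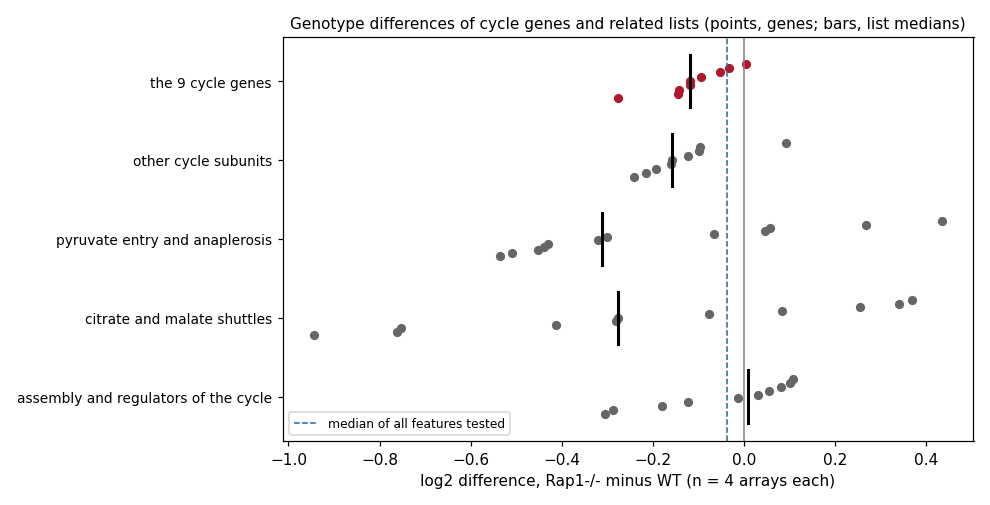
Difference of every gene of the cycle and of 4 related lists, Rap1-/- minus WT, in log2 units scaled to the 75th percentile (n = 4 each). Red points are the 9 cycle genes, grey points genes of the other lists, black bars list medians and the dashed line the median of all features. The 9 genes lie within -0.28 to 0.01, and the lists for pyruvate entry and for citrate and malate shuttles spread more widely on both sides of 0.

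Of 10 assembly factors and regulators, 5 lay below 0 and 5 above, with a median of 0.01 and 0 called, while 8 lay above 0 with the E1A scaling. Ppargc1a, the coactivator PGC1α, was at -0.31 ± 0.15 on its brightest probe and at 0.24 on its other probe, and Ppargc1b was at -0.29 ± 0.15 (SE, limma adjusted p = 0.874 for both genes). The succinate dehydrogenase assembly factors Sdhaf1 and Sdhaf2 were at -0.12 ± 0.11 and 0.10 ± 0.09 (adjusted p = 0.895 and 0.89).

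Some marker lists of the cell types in a fat pad also had medians farther from 0 than that of all features, and their part in the values of the cycle genes was not tested. Of 12 adipocyte genes 11 lay below 0, or 6 with the E1A scaling (median -0.24, summed level 3641 to 4017 in Rap1-/- and 3992 to 4736 in WT), and 0 were called. At an unadjusted p under 0.05, 5 adipocyte genes were lower, or 2 with slide as a block, 2 without any one of Rap1-/- array 1, Rap1-/- array 4 and WT array 1, and 0 with quantile, median or E1A scaling, and the median was -0.03 after quantile normalisation. All 8 mesothelial genes tested lay above 0 (median 0.63, summed level 38.6 to 48.0 in Rap1-/- and 16.9 to 43.9 in WT), with a median of 0.37 without WT array 3, 0.19 within slide 1 (7 of 8 above 0) and 1.05 within slide 2. With E1A scaling their median was 0.87. At an unadjusted p under 0.05, 2 of them were higher, with 0 called. This count was 4 with quantile and 6 with E1A scaling, 1 without Rap1-/- array 3 or 4, and 0 within slide 1. Also above 0 were 8 of 9 fibroblast genes (median 0.23, summed level 648 to 689 in Rap1-/- and 475 to 725 in WT), whose median was 0.13 without WT array 3 and 0.37 without WT array 2. Of 9 macrophage genes 8 lay above 0 (median 0.21, summed level 67.7 to 89.5 in Rap1-/- and 59.6 to 75.9 in WT), with a median of 0.12 without Rap1-/- array 1. Brown adipocyte, endothelial and lymphocyte genes had medians of -0.01, -0.03 and 0.00, no farther from 0 than that of all features, and these were 0.22, 0.20 and 0.24 with the E1A scaling. No listed marker with a probe was below background on all 8 arrays.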

How the data were processed

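Total RNA of gonadal white fat (RIN 6.5 to 8.5) was labelled with one dye by the authors and put on Agilent mouse arrays. The deposited scanner files, written per the file headers by Feature Extraction 10.7.3.1 while the study's methods name another version, hold spot intensities that were background-subtracted but not normalised between arrays, with flags of 0 or 1. A deposited table of values holds log2 units. Its columns had medians of 6.56 to 6.57 and correlated at 0.99998 or above with a recomputed normexp background correction (offset 50) followed by quantile normalisation, and it served as an alternative. The submitters' processing notes name limma without a version.

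Processed signals were put on the log2 scale minus each array's 75th percentile, spots with an outlier flag were dropped and spots of one probe averaged (13 probes without a value on some array were dropped). A probe was kept where at least 4 of 8 arrays, of either genotype, called it well above background (33982), named through RefSeq accessions in a GRCm38.p6 table (26056 of 55681 probes, 46.8%), and the probe with the highest mean stood for its gene. Genotypes were compared with limma 3.58.1 (lmFit, eBayes) in R 4.3.3, adjusted over 25064 features by Benjamini-Hochberg with a threshold of 0.05. The fit was tested on simulated data. Groups came from the sample labels. Nothing says more of the replicates than that they are separate samples. The p-values set each difference against the spread between these samples, with variances moderated over all features by eBayes. The number of samples limits the precision. The members, the lists and the tests were chosen with earlier results of these data known. Named are all members and probes, up to 4 genes per related list by p, the 5 genes most like the members' mean profile, and Idh2, except 1 gene that is not reported here. Alternatives covered background correction, scaling, the deposited table, filters, probe choice, slide, replicate number and each array left out. Cd68, Cd8a, Elovl3 and Muc16 were not tested. Python 3.11.15 with scipy 1.17.1 and matplotlib 3.10.9 was used for the permutation test and figures.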

Additional observations from a re-analysis of the deposited data

Results flagged for a closer look

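Idh3a on Rap1-/- array 2 read 4.49 log2 units, while the other 3 Rap1-/- arrays lay between 4.20 and 4.23. Its gap to the nearest of them was 0.875 of the group's range, above Dixon's 95% critical value for 4 samples. It was 1 of 22 groups tested (11 probes in each genotype), and chance gives about 1 in 20.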

How the results depend on the processing

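None of the 9 genes was called under any of 21 alternatives (smallest adjusted p 0.534 to 1.00 by alternative). The count over all features was 1, with 2 after normexp, in the deposited table and with trended robust variance, 0 within slide 1 and within slide 2, and 1 without any single array. Among features with an unadjusted p under 0.05, 33.5% were higher in Rap1-/-, against 23.3% with normexp, 51.7% with quantile normalisation, 50.2% with median scaling, 94.7% with E1A scaling and 53.3% in the deposited table; within slides 1 and 2 it was 44.2% and 49.4%. With E1A scaling the members' median turned to 0.12, and the signs of Idh3a (0.12), Idh3b (0.18), Idh3g (0.0879), Ogdh (0.12), Suclg1 (0.20), Fh1 (0.14) and Mdh2 (0.0909) turned, while Cs stayed at -0.04. The sign of Idh3b also turned with normexp (0.0039), median scaling (0.0074), the deposited table (0.0278) and within slide 2 (0.0339), that of Ogdh in the deposited table (0.0139), that of Suclg1 with quantile normalisation (0.0173), median scaling (0.0267) and within slide 2 (0.024), and that of Suclg2 within slide 1 (-0.19). Leaving out one array each gave -0.25 to 0.0013 for Idh3a, -0.11 to 0.0089 for Idh3b, -0.10 to 0.023 for Suclg1, -0.10 to 0.0695 for Suclg2, and -0.18 to -0.01 for the members' median. Deviations of arrays with the same replicate number correlated at -0.22 to -0.13, so no pairing by number was seen. These correlations cannot exclude a pairing with a small shared effect, and the labels do not state one. With the replicate block 1 feature and 0 members were called and the members' median was -0.12. With 4 arrays per genotype small differences could be missed, and the 95% intervals do not mark the limit of detection, since calls were adjusted over all features. The intervals of Pcx (-1.03 to -0.04), Me1 (-1.84 to -0.05), Mdh1 (-0.55 to -0.01) and Slc25a13 (0.02 to 0.72) excluded 0. None of these genes was called (limma, adjusted p = 0.874 each).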
